A study of Mus musculus with 9 samples.

Results

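The immunoglobulin genes of the mouse and the joining chain gene Jchain were followed across smooth muscle cells sorted from lung. All rows of the expression table whose gene biotype begins with IG_ and is not a pseudogene were taken, and Jchain was added, which gave 121 of 21049 genes. They were 11 constant region genes, 101 variable (V) segments, 8 joining (J) segments and Jchain, and no diversity segment was among the rows. By coordinates of the mm39 mouse genome, 60 lay in the heavy chain locus on chromosome 12, 54 in the kappa locus on chromosome 6, 6 in the lambda locus on chromosome 16, and Jchain on chromosome 5. The study compared 3 libraries each of 3 sorted populations. Total SMC (labelled SmMCll, and total_SMC in the plots) were pulmonary smooth muscle cells, venous cells included, of tg-Acta2-GFP mice, in which an Acta2 transgene drives the green fluorescent protein used for sorting. BSMC were bronchial smooth muscle cells of Chrm2/Acta2-CreER/R26-GFP mice, and PASMC were pulmonary arterial smooth muscle cells of Cspg4/Acta2-CreER/R26-GFP mice, where a reporter at R26 marks cells that have used the drivers. Tamoxifen, which activates CreER or DreER, is given in the labels of all 9 libraries, at 0.75 mg per 10 g of body weight for 3 days from a corn oil stock of 20 mg/mL. The labels give no age and do not say whether the 3 libraries of a group came from separate mice, so p-values measure the spread between libraries, which may be technical. Population, mouse line and sort differ together and cannot be told apart.

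An antibody is built from paired heavy and light chains. B cells join V, diversity and J segments for the heavy chain and V and J segments for a kappa or lambda light chain, and the joined piece is spliced to a constant region. The heavy constant region sets the class: Ighm gives IgM and Ighd gives IgD, which naive B cells carry together, while class switching brings in Ighg genes for IgG or Igha for IgA. The J chain links IgM and IgA into polymers, which the receptor encoded by Pigr carries across epithelia. Plasma cells secrete antibody and make far more of these transcripts than B cells do, and IgA is the main class of mucosal surfaces, airways included. Smooth muscle cells are not known as a source of antibody.

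Many V segments of 1 family resemble each other closely, which bears on V segment values below, since a short read can match several of them. The lines below show 2 pairs of kappa segments whose members had opposite patterns in total SMC and BSMC. Each line is the last 240 bases of the GENCODE vM21 transcript (GRCm38), read 5′ to 3′ on the coding strand, and capitals mark the bases that differ within the pair.
Igkv10-94: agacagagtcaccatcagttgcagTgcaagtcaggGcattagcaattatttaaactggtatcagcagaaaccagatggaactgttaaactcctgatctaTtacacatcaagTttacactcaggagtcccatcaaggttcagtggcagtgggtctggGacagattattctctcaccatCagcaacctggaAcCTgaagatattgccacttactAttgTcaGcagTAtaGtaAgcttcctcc
Igkv10-96: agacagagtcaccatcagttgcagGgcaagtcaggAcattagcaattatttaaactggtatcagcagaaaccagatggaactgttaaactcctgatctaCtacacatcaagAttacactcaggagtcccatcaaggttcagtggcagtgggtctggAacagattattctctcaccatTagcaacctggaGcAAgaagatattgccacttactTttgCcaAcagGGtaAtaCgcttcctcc
Igkv6-32: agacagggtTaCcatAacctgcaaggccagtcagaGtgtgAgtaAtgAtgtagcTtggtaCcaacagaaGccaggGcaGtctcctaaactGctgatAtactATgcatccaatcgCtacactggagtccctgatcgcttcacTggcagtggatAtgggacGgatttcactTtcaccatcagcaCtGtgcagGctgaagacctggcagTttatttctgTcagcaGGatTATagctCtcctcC
Igkv6-13: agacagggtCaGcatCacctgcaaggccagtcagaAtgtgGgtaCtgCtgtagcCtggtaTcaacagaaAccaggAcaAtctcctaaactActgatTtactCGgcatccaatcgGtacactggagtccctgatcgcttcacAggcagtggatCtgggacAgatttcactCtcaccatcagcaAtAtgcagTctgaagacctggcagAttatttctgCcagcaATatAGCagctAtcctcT
All 4 lie on the minus strand of chromosome 6, and the bases shown fall in the exon that encodes the V domain. Igkv10-94 (chr6:68681492-68681962 in mm39) and Igkv10-96 (chr6:68608947-68609426) differed at 16 of the 240 bases, were 93.3% identical and shared an unbroken run of 63 bases. Igkv6-32 (chr6:70051008-70051587) and Igkv6-13 (chr6:70434485-70435020) differed at 33 bases and were 86.2% identical, with a longest shared run of 26 bases. Igkv10-96 and Igkv6-13 were chosen for this display after their values were seen.

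Depth, read from the spacing of the normalized values, was 8.93 to 9.90 M implied reads in total SMC, 6.39 to 9.33 M in BSMC and 8.92 to 10.02 M in PASMC. Smooth muscle markers were present in every library but were not level between the groups. Of 8 tested, total SMC was called lower than BSMC for 5 and lower than PASMC for 3, and BSMC lower than PASMC for 1. Of all genes tested, 18.2%, 6.83% and 13.2% were lower in these comparisons, and some of the 5 calls ended when 1 library was left out. Lmod1 was at 1446, 1267 and 1750 normalized reads in total SMC, 3430, 3668 and 3573 in BSMC and 3251, 2827 and 3136 in PASMC. Myh11, the smooth muscle myosin heavy chain, was at 10351, 10055 and 12375 normalized reads in total SMC, 9171, 11404 and 11032 in BSMC and 12498, 11203 and 12172 in PASMC. In bulk RNA, fewer cells of a type and less RNA per cell cannot be told apart, and this applies to every level below. A gene was tested where at least 3 libraries had a normalized value of at least 10, which 62 members met, among them 9 constant genes, 50 V segments, 2 J segments and Jchain. The other 59 members were not tested. Since 61 of the 62 had no PASMC library at 10 or more, and 26 reached 10 only in total SMC and 5 only in BSMC, many members could pass only through the group in which they were high.

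Total SMC and BSMC libraries held abundant immunoglobulin transcripts, and PASMC libraries held almost none. Summed over all members, the values came to 865, 949 and 701 CPM (parts of a library's summed values, scaled as CPM) in the total SMC libraries, 1165, 710 and 949 CPM in the BSMC libraries, and 3.81, 3.36 and 2.10 CPM in the PASMC libraries. The ranges of total SMC and BSMC overlapped, and each lay far above PASMC. In PASMC 115 of the 121 members were listed at 0 in every library, against 22 in total SMC and 23 in BSMC. At the other end, 49 members reached 10 in all 3 total SMC libraries and 25 did so in all 3 BSMC libraries. In PASMC 1 did, which was Ighm, and the largest PASMC value of any other member was 1.

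By mean, the members most abundant in both total SMC and BSMC were Igha, Jchain and Igkc. Bulk values do not show which heavy chain class the Igkc and Jchain transcripts served. Jchain (chromosome 5, 88667668 to 88675750) was at 965, 1163 and 926 normalized reads in total SMC, 1339, 553 and 820 in BSMC, and 0 in all 3 PASMC libraries. Igha (chromosome 12, 113218450 to 113223856), the IgA constant region, was at 1555, 1523 and 1601 in total SMC, 2220, 1579 and 2164 in BSMC, and 1, 0 and 0 in PASMC. Igkc (chromosome 6, 70703419 to 70703950), the kappa constant region, was at 867, 858 and 920 in total SMC, 1078, 808 and 1144 in BSMC, and 1, 0 and 0 in PASMC. The lowest value of these 3 genes in any total SMC or BSMC library was 553, while no PASMC library was above 1. Between total SMC and BSMC the log2 fold change was 0.26 ± 0.31 for Jchain (standard error, adjusted p = 0.517), -0.33 for Igha (adjusted p = 0.352) and -0.18 for Igkc (adjusted p = 0.644), so none of the 3 was called. These p-values do not show equal expression.

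**Figure D1:**
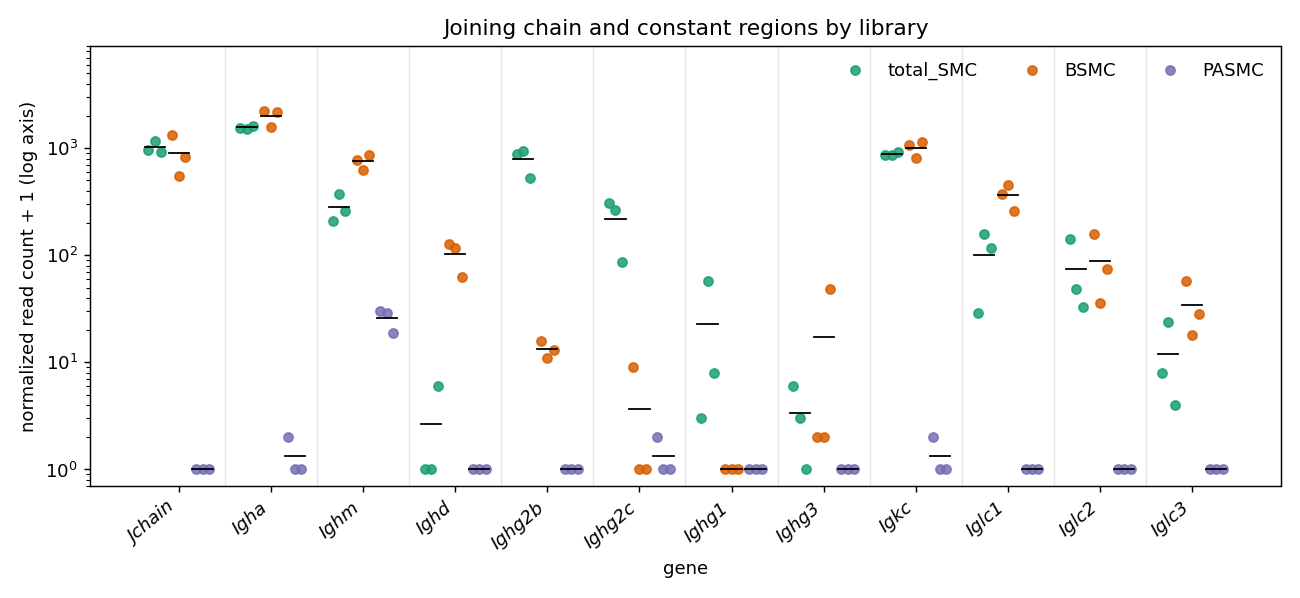
Normalized read count plus 1 on a log axis for the immunoglobulin constant region genes and Jchain, with a point for each of the 3 libraries of total_SMC, BSMC and PASMC and a bar at the mean. Jchain, Igha and Igkc sit together in total_SMC and BSMC and near 0 in PASMC. Ighg2b is at 523 to 948 in total_SMC against 10 to 15 in BSMC, and Ighm is the 1 gene with a PASMC value above 1.

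The heavy chain classes separated total SMC from BSMC. Ighg2b, an IgG constant region, was at 883, 948 and 523 normalized reads in total SMC, against 15, 10 and 12 in BSMC and 0 in every PASMC library. Its log2 fold change of total SMC over BSMC was 5.85 ± 0.41 (limma, adjusted p = 1.5e-06), and the libraries did not overlap. Ighg2c, a second IgG constant region, was at 306, 265 and 86 in total SMC, against 8, 0 and 0 in BSMC and 1, 0 and 0 in PASMC. The log2 fold change over BSMC was 6.53 ± 0.88 (adjusted p = 0.000189). It was 7.59 without BSMC library 1, the 1 BSMC library above 0, and 4.84 with a pseudocount of 5. Both IgG genes were therefore high in all total SMC libraries and low or at 0 elsewhere. Few of their 50-base words occur in any other gene, 4.15% of those of Ighg2b and 5.49% of those of Ighg2c. Each shared most of these with the other. Ighg1 (2, 56 and 7 in total SMC, and 0 in all BSMC and PASMC libraries) and Ighg3 (5, 2 and 0 in total SMC, against 1, 1 and 47 in BSMC and 0 in PASMC) did not pass the filter, and each rested on 1 library.

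IgM and IgD ran the other way. Ighm was at 209, 369 and 260 normalized reads in total SMC, against 782, 624 and 858 in BSMC and 29, 28 and 18 in PASMC. Total SMC lay below BSMC in every library, with a log2 fold change of -1.46 ± 0.27 (adjusted p = 0.00134). Over PASMC the log2 fold change was 3.42 in total SMC (adjusted p = 1.44e-05) and 4.88 in BSMC (adjusted p = 5.72e-07). Ighd, the IgD constant region just downstream of Ighm, was at 0, 0 and 5 in total SMC, against 127, 115 and 61 in BSMC and 0 in all PASMC libraries. Its log2 fold change of total SMC over BSMC was -5.74 ± 0.77 (adjusted p = 0.000171). It stayed called without total SMC library 3, the 1 total SMC library above 0, and no fold change is given there. The PASMC signal of Ighm thus came with no Ighd and no V segment above 1.

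Expressed as shares of the summed heavy chain constant values per exonic base, IgG made up 44.8%, 42.9% and 26.2% in the total SMC libraries, and in the BSMC libraries its mean was 1.03% ± 0.68 (SD, n = 3). On the same scale IgM made up 12.4% ± 3.1 in total SMC and 33.1% ± 1.6 in BSMC. IgD averaged 0.0874% ± 0.15 in total SMC, from 1 library, and 4.53% ± 1.9 in BSMC. IgA had the largest mean share in both groups, 49.6% ± 9.1 in total SMC and 61.4% ± 1.4 in BSMC, and its library values nearly met, with 42.5% to 59.8% in total SMC against 59.9% to 62.8% in BSMC. In total SMC library 2 IgG, at 42.9%, was level with IgA, at 42.5%, but without division by length IgA was at 48.2% and IgG at 40.2%. The shares depend on the exonic lengths used, which were 2668 bases for Igha, 2678 for Ighg2b, 1326 for Ighg2c and 1886 for Ighm. Without division IgM averaged 9.73% in total SMC and 26.3% in BSMC. Without division by length the IgG shares were 40.4%, 40.2% and 24.8% in total SMC and 0.761%, 0.472% and 1.88% in BSMC. These shares are descriptions, with no test.

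**Figure D2:**
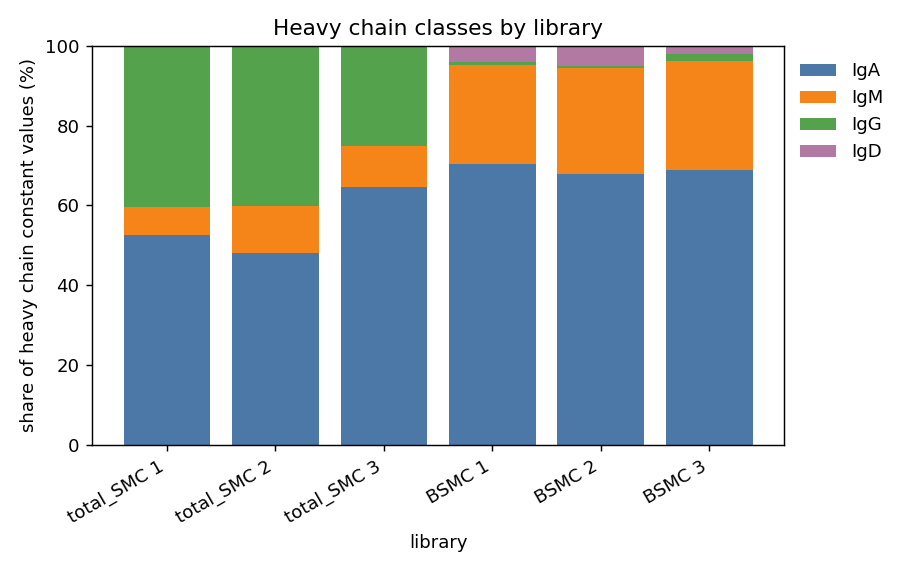
Stacked bars of the share of summed heavy chain constant region values, in percent, taken by each antibody class in the 3 total_SMC libraries (left) and the 3 BSMC libraries (right). IgG takes 24.8% to 40.4% of the total_SMC bars and at most 1.88% of the BSMC bars, where IgM takes 24.8% to 27.3%.

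Light chains were mostly kappa in both groups, with more lambda in BSMC. Kappa made up 83.0%, 79.2% and 86.0% of the summed light chain constant values in total SMC, against 64.7%, 61.6% and 76.2% in BSMC. Iglc1, a lambda constant region, was at 28, 156 and 115 normalized reads in total SMC, against 375, 452 and 258 in BSMC and 0 in all PASMC libraries. Its log2 fold change was -2.13 ± 0.56 (adjusted p = 0.0111) and was -1.39 without total SMC library 1. Iglv1, the V segment most often joined to it, was at 60, 132 and 93 in total SMC, against 273, 274 and 168 in BSMC, a log2 fold change of -1.35 ± 0.41 (adjusted p = 0.0202). That call was lost without BSMC library 1 (adjusted p = 0.0647), without total SMC library 1 (adjusted p = 0.0952) and without total SMC library 3 (adjusted p = 0.0676), and on reads before scaling (adjusted p = 0.0615). The other lambda constant genes overlapped between total SMC and BSMC. Iglc2 was at 142, 47 and 32 in total SMC, against 156, 35 and 73 in BSMC (adjusted p = 0.734), and Iglc3 at 7, 23 and 3 in total SMC, against 57, 17 and 27 in BSMC (adjusted p = 0.0772). Iglc3 passed without total SMC library 2 (adjusted p = 0.0349) and without BSMC library 2 (adjusted p = 0.0458), and with a pseudocount of 5 (adjusted p = 0.0483). Both genes were at 0 in every PASMC library and were called over PASMC in total SMC and in BSMC.

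Across the 62 members tested, total SMC was called higher than BSMC for 32 and lower for 14. Of all 15647 genes tested, 23.7% were higher and 18.2% were lower in this comparison, so large shares of all genes moved too. The median log2 fold change was 2.86 over the members tested and 0.05 over all genes. Since 26 of the 62 reached 10 only in total SMC and 5 only in BSMC, the filter itself tilts this median and these counts. They describe the tested set and not all 121 members. The calls came mostly from V segments, of which 30 of 50 were higher and 11 lower. Heavy chain V segments gave 13 higher and 5 lower of 21, kappa V segments 17 higher and 5 lower of 27, and of the 2 lambda segments 1 was lower. Constant genes gave 2 higher (Ighg2b and Ighg2c) and 3 lower (Ighm, Ighd and Iglc1) of 9. The number called higher depended on the filter: it was 13 when a value of at least 30 in 3 libraries was required, and 52 with no filter.

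Many V segments abundant in total SMC were close to absent from BSMC. Igkv12-44, the most abundant kappa segment of total SMC libraries 1 and 3, was at 167, 151 and 150 normalized reads in total SMC, against 2, 2 and 3 in BSMC. The log2 fold change was 5.57 ± 0.50 (adjusted p = 1.1e-05). Igkv4-91 was at 105, 160 and 78 in total SMC, against 2, 0 and 0 in BSMC, with a log2 fold change of 6.26 ± 0.66 (adjusted p = 3.2e-05). Neither exceeded 3 in any BSMC library. Among heavy chain segments Ighv1-76 was at 60, 117 and 55 in total SMC, against 1, 0 and 0 in BSMC (adjusted p = 4.5e-05). Ighv14-2 was at 98, 46 and 73 in total SMC, against 0, 2 and 0 in BSMC (adjusted p = 8.8e-05). The libraries of the groups did not overlap for any of these 4 segments, nor for Igkv1-117, which was at 88, 158 and 95 in total SMC, against 12, 5 and 9 in BSMC.

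Other segments were prominent in BSMC and missing from total SMC. Igkv6-32, whose sequence is printed above, was listed at 0 in all 3 total SMC libraries, against 420, 65 and 171 normalized reads in BSMC (adjusted p = 1.8e-05). Ighv9-1 was listed at 0 in all total SMC libraries, against 61, 196 and 67 in BSMC (adjusted p = 2.4e-05). Igkv4-70 was also listed at 0 in all total SMC libraries, against 53, 125 and 32 in BSMC (adjusted p = 6.8e-05). No fold change is given for these, since 1 group had no value above 0. Ighv1-15 was at 30, 7 and 5 in total SMC, against 266, 110 and 137 in BSMC, a log2 fold change of -3.81 ± 0.65 (adjusted p = 0.000856). Without total SMC library 1, its highest, the log2 fold change was -4.53.

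Both sequence pairs shown above split between the groups. Igkv10-94 was at 17, 5 and 2 normalized reads in total SMC, against 293, 81 and 351 in BSMC, a log2 fold change of -4.89 ± 0.74 (adjusted p = 0.000376). Its near neighbour Igkv10-96 was at 62, 154 and 73 in total SMC, against 10, 1 and 1 in BSMC, a log2 fold change of 4.67 ± 0.75 (adjusted p = 0.000545). Leaving out single libraries moved the Igkv10-94 value between -5.59 (total SMC library 1) and -4.29 (total SMC library 3), with -5.55 without BSMC library 2. Against Igkv6-32, its relative Igkv6-13 was at 55, 89 and 48 in total SMC and 2, 0 and 1 in BSMC, a log2 fold change of 5.11 ± 0.65 (adjusted p = 0.000124). Each pair was thus high in opposite groups, although 46.6% of the 50-base words of Igkv10-94 and 32.6% of those of Igkv10-96 also occur in another gene.

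Some abundant segments were present in both groups. Igkv1-110 was at 124, 99 and 44 normalized reads in total SMC, against 144, 25 and 73 in BSMC (adjusted p = 0.685). Igkv17-121 was at 68, 72 and 46 in total SMC, against 50, 116 and 54 in BSMC (adjusted p = 0.806). Ighv1-55 was at 47, 53 and 25 in total SMC, against 209, 31 and 102 in BSMC (adjusted p = 0.179), and passed without BSMC library 2 (adjusted p = 0.0154). The libraries of these 3 segments overlapped. Igkv17-127 (89, 32 and 13 in total SMC, against 296, 73 and 161 in BSMC) and Igkv6-23 (108, 30 and 19 in total SMC, against 192, 149 and 82 in BSMC) were called lower, with adjusted p = 0.0277 and 0.0425, although their libraries overlapped. Leaving out BSMC library 1, total SMC library 2 or total SMC library 3 ended both calls, as did BSMC library 3 for Igkv17-127 and BSMC library 2 for Igkv6-23, with adjusted p up to 0.124 for Igkv17-127 and up to 0.181 for Igkv6-23. Both also ended on reads before scaling (adjusted p = 0.0595 for Igkv17-127 and 0.106 for Igkv6-23), and Igkv6-23 with a pseudocount of 0.5 (adjusted p = 0.0535) or no trend or robust option (adjusted p = 0.0510).

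**Figure D3:**
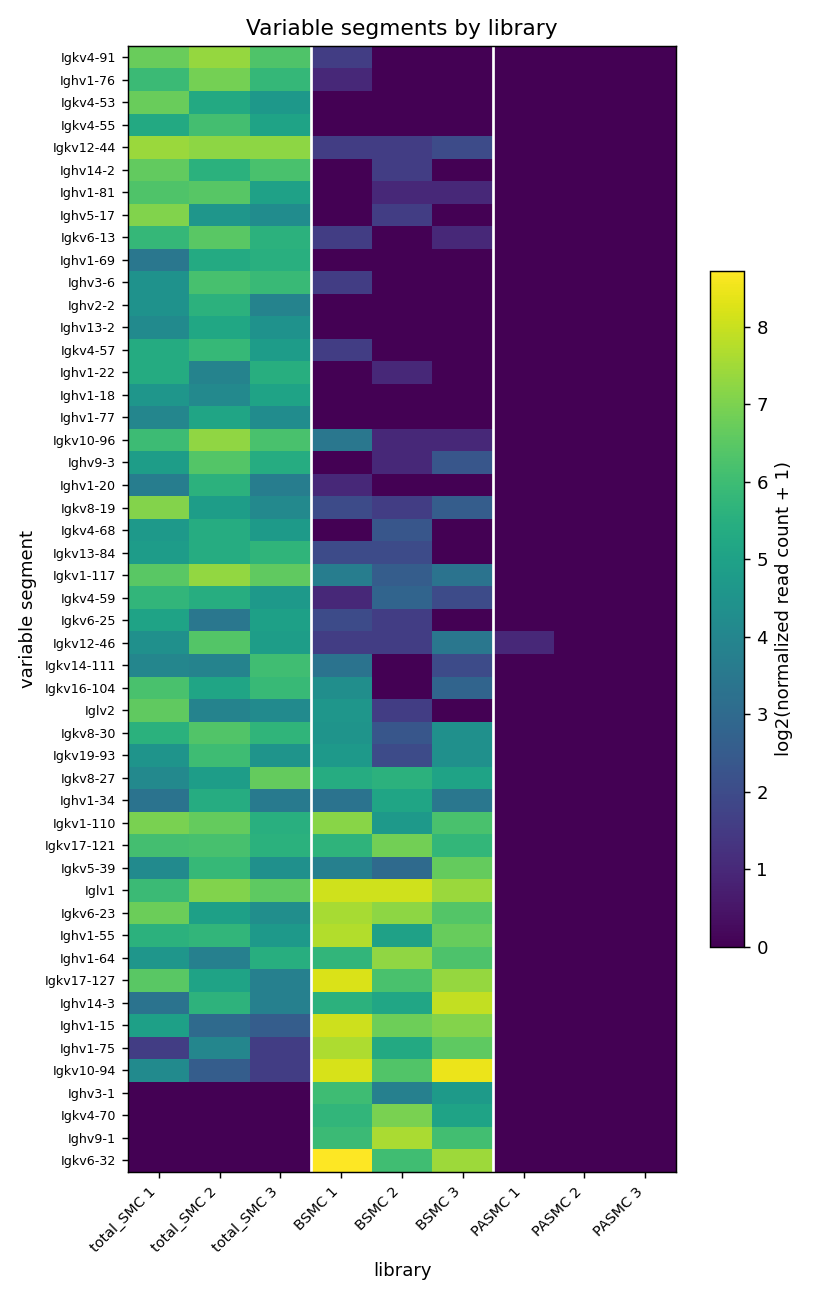
Heat map of log2 of normalized read count plus 1 for the 50 V segments that passed the filter (down the page, ordered by the difference between total_SMC and BSMC) in the 9 libraries (total_SMC, BSMC, PASMC from left to right). Segments at the top are high in total_SMC and near 0 in BSMC, those at the bottom are high in BSMC, and the PASMC columns are empty but for a value of 1 in Igkv12-46.

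Near-identical copies make single V segment values uncertain where the counting could split their reads. Of the 121 members, 94 shared at least 1 of their 50-base words with another gene, 81 shared over 10% and 14 shared over 50%. Among V segments with under 10% of words shared, 10 were tested. Total SMC was higher than BSMC for 6 of them (Ighv13-2, Igkv16-104, Igkv4-91, Igkv12-46, Ighv3-6 and Igkv14-111) and lower for 1 (Igkv6-32). Of all genes tested, 23.7% were higher and 18.2% were lower in this comparison, so the 1 lower call was not above that share. Ighv13-2, Igkv4-91, Ighv3-6 and Igkv14-111 reached 10 only in total SMC, and Igkv6-32 only in BSMC. Each of these could pass the filter only through that group.

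Whole V usage also divided the groups. A V segment reached 10 in all 3 libraries in 41 cases in total SMC and in 16 cases in BSMC. The sets had 8 segments in common, 19.5% of the total SMC set and 50% of the BSMC set. Another 25 reached 10 in every total SMC library and stayed under 10 in every BSMC library, and 4 did the reverse. Of these, 7 of the 25 and all 4 of the others were at 0 in all libraries of the other group. Such counts were not made over all genes, so they do not show how unusual the V segments were. As an overlap, the smaller of the shares that each V segment took in 2 libraries was summed over the 101 segments. Libraries of total SMC overlapped by 62.5% to 72.1% and libraries of BSMC by 54.6% to 71.0%, over 3 pairs each, while the 9 pairs across the groups overlapped by 21.4% to 26.5%. Spearman correlations of the same values across segments were 0.78 to 0.84 within total SMC, 0.64 to 0.77 within BSMC and -0.13 to 0.05 across the groups. They describe 101 segments, many of them at 0 or sharing reads with others, and have no test.

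V usage was broader in total SMC than in BSMC. The effective number of V segments (the inverse of the summed squared shares) was 35.9, 36.5 and 37.0 in total SMC, against 14.3, 12.6 and 14.4 in BSMC. The 5 most abundant segments took 23.6%, 25.8% and 24.7% of the summed V values in total SMC, against 50.3%, 53.3% and 48.7% in BSMC. The top segment of each total SMC library was Igkv12-44 at 5.88%, Igkv4-91 at 5.47% and Igkv12-44 at 7.18%. In BSMC a different segment led each library, Igkv6-32 at 13.6%, Iglv1 at 16.3% and Igkv10-94 at 15.7%. Libraries of the groups did not overlap in any of these measures. The number of V segments at 10 or more was 54, 56 and 50 in total SMC, against 29, 17 and 26 in BSMC. The summed V values were alike, 2618 ± 461 in total SMC and 2332 ± 703 in BSMC (SD, n = 3 each). V segments that passed the filter had exonic lengths of 347 to 415 bases, so the shares were not divided by length.

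**Figure D4:**
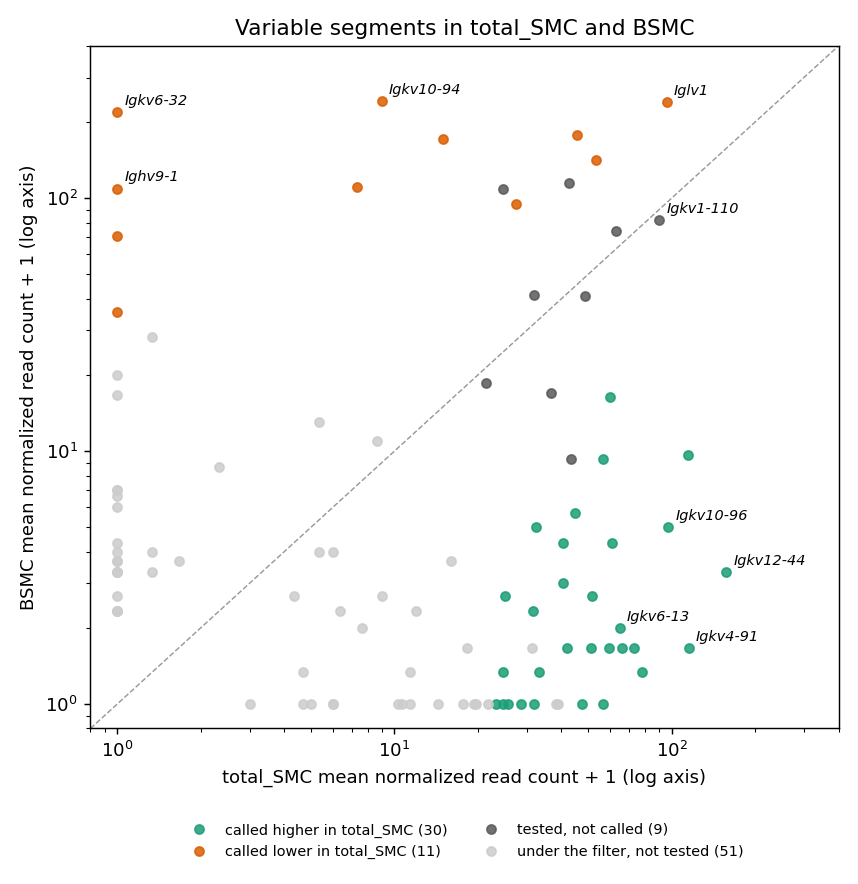
Mean normalized read count plus 1 of each of the 101 V segments in total_SMC (x, log axis) and in BSMC (y, log axis), coloured by the call of total_SMC over BSMC, with the dashed line at equal values. Segments called higher (30) lie along the bottom right and those called lower (11) along the top left, with few near the line.

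J segments are short, and their rows held few reads. Ighj4 was at 13, 15 and 5 normalized reads in total SMC, against 9, 7 and 18 in BSMC. Ighj1, which did not pass the filter, was at 17, 9 and 8 in total SMC, against 7, 13 and 8 in BSMC. Ighj2 was at 9, 10 and 4 in total SMC, against 18, 4 and 13 in BSMC. All 3 overlapped between total SMC and BSMC and were at 0 in PASMC. By limma, 0 of the 2 tested J segments differed between total SMC and BSMC, and 0 had an unadjusted p under 0.05.

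Against PASMC nearly every member tested was higher in total SMC. Total SMC was higher for 56 of 62 members and lower for 0, where 9.39% of all genes tested were higher and 6.83% lower. The median log2 fold change was 5.24 over the members tested, against 0.03 over all genes. The 56 were 45 V segments, 8 constant genes, 2 J segments and Jchain. The 6 not called were Ighd, Igkv6-32, Ighv9-1, Igkv4-70, Ighv3-1 and Ighv1-75, all called lower in total SMC than in BSMC. Igkv10-94, called here at adjusted p = 0.0233, lost its call without any of the 3 PASMC libraries or without total SMC library 1 or 2 (adjusted p = 0.0562 to 0.112), and with quantile normalization (adjusted p = 0.218) or a pseudocount of 5 (adjusted p = 0.169). Iglc3 (adjusted p = 0.0117) and Ighj2 lost theirs without total SMC library 2 (adjusted p = 0.0667 and 0.0644), and Ighj2 also without total SMC library 1 (adjusted p = 0.0617). With a pseudocount of 5 both calls ended too (adjusted p = 0.0658 for Iglc3 and 0.0529 for Ighj2), as did that of Ighj2 with quantile normalization (adjusted p = 0.0527). The count was 30 when a value of at least 30 in 3 libraries was required.

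BSMC was higher than PASMC for 33 of 62 members and lower for 0, where 8.88% of all genes tested were higher and 13.2% lower. The median log2 fold change was 3.33 over the members tested, against -0.05 over all genes. The 33 were 22 V segments, 8 constant genes, 2 J segments and Jchain. Ighg2b passed here (15, 10 and 12 in BSMC, against 0 in PASMC, adjusted p = 7.9e-05), and Ighg2c did not (adjusted p = 0.565). Unadjusted, 57 members were higher in total SMC than in PASMC and 38 in BSMC, with 0 lower in either comparison. Both comparisons share the PASMC libraries. Since most members could pass the filter only through total SMC or BSMC, these counts describe the tested set and not all 121 members.

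Genes of antibody-secreting cells were called in both directions between total SMC and BSMC, in shares near those of all genes. Of 20 plasma cell genes listed, 18 were in the table and 17 were tested. Total SMC was called higher than BSMC for 4 and lower for 4, where 23.7% and 18.2% of all genes tested were. It was called higher than PASMC for 9 and lower for 0 (0 also at an unadjusted p under 0.05), where 9.39% and 6.83% of all genes were. BSMC was called higher than PASMC for 4 and lower for 2, where 8.88% and 13.2% of all genes were. Total SMC was higher than BSMC for 2 without total SMC library 1. BSMC was lower than PASMC for 1 without BSMC library 1 or 3, PASMC library 1 or 2, or total SMC library 3. The 9 fell to 2 without total SMC library 1, to 4 without total SMC library 2, and to 5 without total SMC library 3 or PASMC library 2. Xbp1, a transcription factor of the secretory pathway, was at 3026, 2702 and 3170 normalized reads in total SMC, 2911, 2564 and 3258 in BSMC and 2286, 2342 and 2581 in PASMC, so it was abundant with or without immunoglobulin transcripts. Mzb1, a chaperone of antibody assembly, was at 0, 1 and 1 in total SMC, 0, 7 and 5 in BSMC and 0 in PASMC, and did not pass the filter.

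Regulators of the plasma cell state had low values. Irf4, a transcription factor that plasma cells need, was at 33, 41 and 27 normalized reads in total SMC, 28, 29 and 4 in BSMC and 3, 13 and 1 in PASMC. Prdm1, which encodes Blimp-1, was at 40, 41 and 21 in total SMC, 50, 31 and 12 in BSMC and 15, 0 and 5 in PASMC. Pou2af1, a coactivator of immunoglobulin transcription, was at 9, 16 and 6 in total SMC, 44, 26 and 3 in BSMC and 0 in PASMC. Between total SMC and BSMC the values of all 3 overlapped (adjusted p = 0.306, 0.817 and 0.541). Over PASMC, total SMC was called higher for Irf4 (adjusted p = 0.0355), Prdm1 (adjusted p = 0.0462) and Pou2af1 (adjusted p = 0.0178), and each call ended without total SMC library 1 (adjusted p = 0.102, 0.145 and 0.0609) or library 2 (adjusted p = 0.123, 0.147 and 0.0885). Irf4 and Prdm1 also lost the call without total SMC library 3 (adjusted p = 0.0843 and 0.0794) and without PASMC library 3 (adjusted p = 0.131 and 0.0817). Single further libraries ended it for Irf4 without PASMC library 1 (adjusted p = 0.0991), for Prdm1 without PASMC library 2 (adjusted p = 0.136) or BSMC library 2 (adjusted p = 0.0503), and for Pou2af1 without PASMC library 2 (adjusted p = 0.0518).

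Between total SMC and BSMC, the plasma cell gene with the largest difference was Tent5c, which encodes a poly(A) polymerase that stabilizes immunoglobulin mRNA. It was at 1340, 2046 and 1807 normalized reads in total SMC, 130, 81 and 105 in BSMC and 357, 272 and 446 in PASMC. The log2 fold change of total SMC over BSMC was 4.03 ± 0.24 (adjusted p = 5.3e-07), and that of BSMC over PASMC was -1.75 (adjusted p = 0.000404). Its order across the groups was therefore not that of the immunoglobulin genes. Tnfrsf13b, the TACI receptor of B and plasma cells, was at 31, 26 and 20 in total SMC, 123, 66 and 130 in BSMC and 9, 6 and 9 in PASMC, with total SMC below BSMC (adjusted p = 0.0026). Slamf7, a surface receptor of plasma cells and other leukocytes, was at 3, 12 and 7 in total SMC, 35, 40 and 45 in BSMC and 0 in PASMC, with total SMC below BSMC (adjusted p = 0.00736).

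B cell genes were found chiefly in BSMC. Of 18 listed B cell genes tested, total SMC was called lower than BSMC for 14 and higher for 1 (Ralgps2), and BSMC was called higher than PASMC for 16 and lower for 0 (0 also unadjusted). Of all genes tested, 18.2% were lower and 23.7% higher in the first comparison, and 8.88% were higher and 13.2% lower in the second. Over PASMC, total SMC was called higher for 5 and lower for 0 (1 lower at an unadjusted p under 0.05), where 9.39% and 6.83% of all genes were. Between 2 and 3 of the higher calls were left without total SMC library 1, 2 or 3 or PASMC library 1 or 2. Median log2 fold changes were -3.42 for total SMC over BSMC, 0.72 for total SMC over PASMC and 4.78 for BSMC over PASMC, against 0.05, 0.03 and -0.05 over all genes. Ms4a1, a B cell surface protein gene, was at 1, 8 and 2 normalized reads in total SMC, 56, 63 and 77 in BSMC and 0 in PASMC. Its log2 fold change of total SMC over BSMC was -4.12 ± 0.66 (adjusted p = 0.000546). Cd79a, a signalling chain of the B cell receptor, was at 9, 11 and 6 in total SMC, 231, 108 and 171 in BSMC and 0, 2 and 3 in PASMC. Bank1, a B cell scaffold, was listed at 0 in all total SMC libraries, against 153, 37 and 64 in BSMC and 0 in PASMC. These 3 genes were thus higher in every BSMC library than in any total SMC or PASMC library. Other listed genes were less separated: Spib, a B cell transcription factor, was at 17, 47 and 25 in total SMC, 55, 9 and 47 in BSMC and 0, 0 and 9 in PASMC. The summed level of the whole list was 224 to 235 CPM in total SMC, 374 to 489 in BSMC and 206 to 228 in PASMC, and most of it came from Ebf1, which stood at 1369 to 2184 normalized reads in all 9 libraries.

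**Figure D5:**
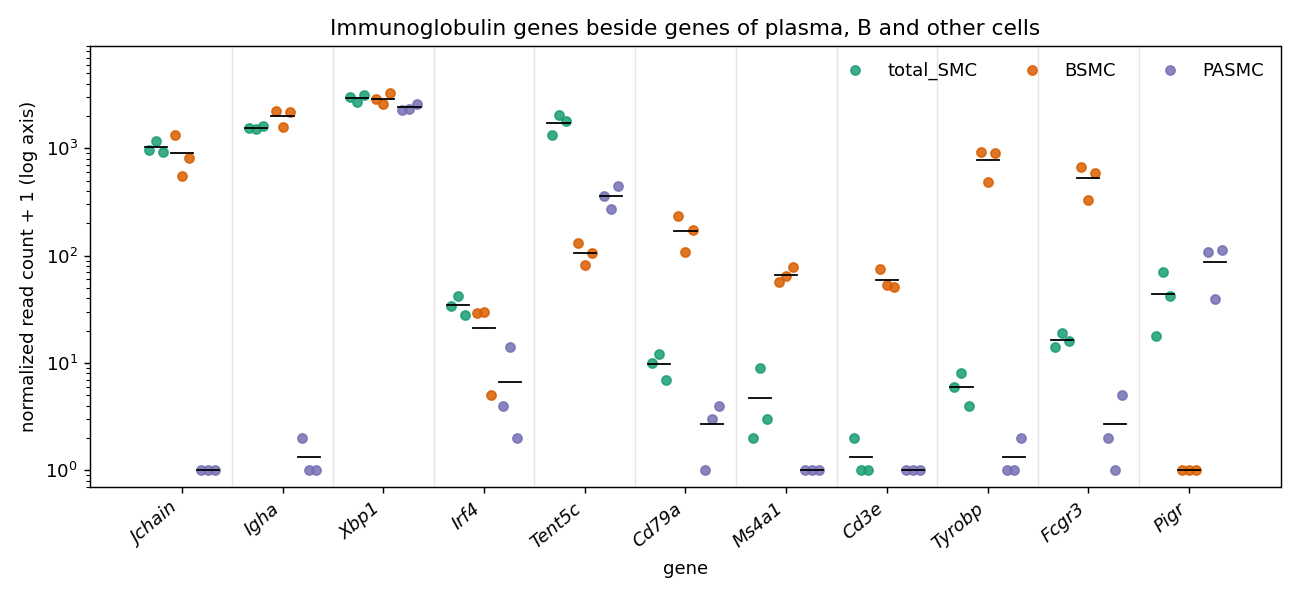
Normalized read count plus 1 on a log axis for Jchain and Igha beside genes of plasma cells (Xbp1, Irf4, Tent5c), B cells (Cd79a, Ms4a1), T cells (Cd3e), myeloid cells (Tyrobp), and antibody receptors (Fcgr3, Pigr), with a point for each library of total_SMC, BSMC and PASMC and a bar at the mean. Jchain and Igha are high in total_SMC and BSMC, while Ms4a1, Cd3e and Tyrobp are high in BSMC and at 0 to 8 in total_SMC.

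Most leukocyte genes tested moved with the B cell genes in BSMC. The summed T and NK cell list (18 of 18 genes in the table) was 7.47 to 9.51 CPM in total SMC, 85.5 to 126 in BSMC and 3.25 to 3.74 in PASMC. Of 15 of these genes tested, total SMC was called lower than BSMC for 13 and higher for 0, where 18.2% and 23.7% of all genes were. The T cell receptor subunit gene Cd3e was at 1, 0 and 0 normalized reads in total SMC, 74, 52 and 50 in BSMC and 0 in PASMC. Cd28 (14, 14 and 22 in total SMC, 45, 10 and 26 in BSMC) overlapped between these groups. So did Thy1 (23, 41 and 21 in total SMC, 26, 12 and 43 in BSMC). The summed myeloid list (18 of 18) was 74.6 to 104 CPM in total SMC, 1028 to 1664 in BSMC and 209 to 220 in PASMC. In total SMC 16 of 16 tested genes were lower than in BSMC, where 18.2% of all genes tested were. Most of the PASMC sum was Lyz2, the lysozyme gene of myeloid and alveolar epithelial cells, at 333, 485 and 395 normalized reads in total SMC, 2465, 1939 and 2798 in BSMC and 1843, 1670 and 1689 in PASMC. Over PASMC, total SMC was called higher for 8 of the 16 and lower for 1 (Lyz2), with a median log2 fold change of 1.98, where 9.39% and 6.83% of all genes were called. Erythroid genes (7 of 8 in the table) summed to 8.92 to 16.8 CPM in total SMC, 35.0 to 85.2 in BSMC and 1.04 to 2.34 in PASMC. Mesothelial genes ran otherwise, with 641 to 811 CPM in total SMC, 76.4 to 173 in BSMC and 30.2 to 49.8 in PASMC. The part of these cells in the immunoglobulin results was not tested. In total SMC the listed markers spanned a wide range, with Cd3e at 0 to 1, Ms4a1 at 1 to 8 and Tyrobp at 3 to 7 normalized reads, Cd28 at 14 to 22, Ctss at 31 to 70, Csf1r at 40 to 48, Cd14 at 129 to 165 and Lyz2 at 333 to 485.

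Receptors that bind or carry antibody were called mostly lower in total SMC than in BSMC. Of 10 tested, total SMC was called lower than BSMC for 6 and higher for 2 (1 without total SMC library 3). Of all genes tested 18.2% were lower and 23.7% higher, so the higher calls were near that share. Fcgr3, a receptor for IgG on myeloid and NK cells, was at 13, 18 and 15 normalized reads in total SMC, 672, 332 and 587 in BSMC and 1, 0 and 4 in PASMC, a log2 fold change of -4.97 ± 0.56 for total SMC over BSMC (adjusted p = 4.9e-05). Fcer1g, the signalling chain shared by Fc receptors, was at 7, 8 and 8 in total SMC, 897, 425 and 778 in BSMC and 2, 1 and 9 in PASMC. Pigr, which carries polymeric IgA and IgM across epithelia, was at 17, 70 and 41 in total SMC, listed at 0 in all BSMC libraries, and at 107, 38 and 112 in PASMC. It was thus at 0 in the group with the highest Ighm, and present in PASMC, where other members were at 1 or below. Fcgrt, the neonatal Fc receptor that recycles IgG, was at 2780, 2642 and 3064 in total SMC, 2536, 2173 and 2876 in BSMC and 2300, 2187 and 2447 in PASMC, and was called in no comparison. Over PASMC, total SMC was higher for 2 (Fcgr3 and Fcgr2b) and BSMC for 6, with 1 lower in BSMC (Pigr, and 2 without BSMC library 2). Of all genes tested, 9.39% were higher in total SMC than in PASMC, and 8.88% were higher and 13.2% lower in BSMC. Fcgr2b, whose total SMC libraries overlapped PASMC, lost its call over PASMC without total SMC library 1 or 2 or PASMC library 1 or 2 (adjusted p = 0.12 to 0.142).

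Factors that attract B cells or keep plasma cells alive differed in which group they were highest. Tnfsf13b, which encodes the survival factor BAFF, was at 1708, 1540 and 1581 normalized reads in total SMC, 425, 443 and 565 in BSMC and 666, 690 and 664 in PASMC. Total SMC was higher than BSMC (log2 fold change 1.76 ± 0.14, adjusted p = 4.2e-06) and higher than PASMC (1.25 ± 0.14, adjusted p = 0.000123). Cxcl13, a chemokine that draws B cells, was at 50, 125 and 62 in total SMC, 420, 240 and 377 in BSMC and 7, 3 and 3 in PASMC, and its log2 fold change was -2.19 ± 0.43 for total SMC over BSMC (adjusted p = 0.00209) and 3.88 for total SMC over PASMC (adjusted p = 0.000119). Cd40, a receptor for T cell help, was at 368, 370 and 348 in total SMC, 108, 61 and 110 in BSMC and 89, 131 and 126 in PASMC (adjusted p = 0.000149 for total SMC over BSMC). Il6, a growth factor of plasma cells, was at 43, 56 and 41 in total SMC, 10, 4 and 3 in BSMC and 10, 0 and 29 in PASMC. Its call for total SMC over BSMC (adjusted p = 0.0328) ended without any 1 of 5 libraries, total SMC 1, 2 and 3 and BSMC 2 and 3 (adjusted p = 0.0591 to 0.0972). Over the list, 9 of 16 genes were tested, and total SMC was called higher than BSMC for 4 and lower for 4, where 23.7% and 18.2% of all genes tested were. The 4 higher became 2 without total SMC library 2 or 3, and the 4 lower became 2 without BSMC library 1 or total SMC library 3.

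Genes of V(D)J recombination and class switching gave few calls. Of 12 tested, total SMC was called lower than BSMC for 1, Hmgb2, and none was called over PASMC in total SMC or BSMC (0 and 1 with an unadjusted p under 0.05). Of all genes tested, 18.2% were lower and 23.7% higher in total SMC than in BSMC. Hmgb2, a chromatin protein that assists the recombinase and is also a gene of dividing cells, was at 125, 160 and 131 normalized reads in total SMC, against 301, 172 and 205 in BSMC (adjusted p = 0.0441). That call ended without any 1 library other than BSMC library 2 (adjusted p = 0.0518 to 0.149). Without BSMC library 2, total SMC was called higher than BSMC for 4 of these genes and lower for 2, and BSMC was called higher than PASMC for 1 and lower for 4. Dntt, the polymerase that adds bases at the joints, was at 0, 2 and 1 in total SMC, 0, 5 and 0 in BSMC and 0 in PASMC. A search of promoters (250 bases before to 50 after each start, RefSeq, GRCm38.p6) for the octamer ATGCAAAT of immunoglobulin promoters on both strands found it in 570 of 32851 promoters, 1.74%. Of the 121 members 1, Jchain, had a promoter in that table, and these letters are not in that window.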

How the data were processed

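RNA of 9 sorted mouse lung smooth muscle libraries was sequenced after SMART-Seq v4 amplification of at most 10 ng. The submitters' processing notes list DESeq2 1.36.0, featureCounts 2.0.4, STAR 2.7.11a, Trimmomatic 0.39, Picard 3.1.1 and the build mm39 without saying what each did, and whether reads were counted by strand or kept when they matched several genes is not given in the sources used here. The deposited values are treated as a score: read counts per gene that the authors divided by a library factor and rounded to whole numbers, as read from the gaps and doublings among the values. The factors were recovered from that spacing, to within 0.0011% on data made with known factors, and dividing each value by its factor gave the implied reads. No pair of libraries of 1 group was a copy (chi-square per gene 6.05 to 30.3).

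The 15647 genes that reached 10 in 3 or more libraries entered 1 limma fit of 3 group means on log2 of value plus 1 (limma 3.58.1, R 4.3.3, trend and robust options). Fold changes are on that scale, which understates the change of low genes. The fit was also run on simulated data with moderate planted changes and no library factors. That run does not bear on contrasts in which a group has no reads. P-values are two-sided and adjusted over the whole tested table (Benjamini-Hochberg), and called, higher and lower mean an adjusted p under 0.05. Errors beside log2 fold changes are standard errors. CPM were computed from the share of a library's summed values. Exonic lengths and transcripts were taken from GENCODE vM21 by gene identifier (96.7% of genes), and 50-base words of each member's transcripts were looked up in those of all other genes. Work outside R used Python 3.11.15.

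Named members were Jchain, the constant genes, the 10 V segments and 3 J segments with the highest mean, and up to 3 V segments per direction and comparison with the largest called change, no overlap of libraries and 30 or more as the higher group mean. Listed genes were named by a like rule, and 1 gene that it named is not reported here. Igkv10-96, Igkv6-13, Xbp1, Mzb1, Irf4, Fcgrt, Dntt and Ebf1, and other V segments named to spell out a small count, were added after their values were seen. Members and lists were chosen with earlier results of these data known. The design planned a Jchain protein sequence, which was not used here.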

Additional observations from a re-analysis of the deposited data

How the results depend on the processing

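The counts of members called were recomputed under 18 alternatives. Total SMC was higher than BSMC for 52 members with no filter on low values and for 13 with a value of at least 30 in 3 libraries, and higher than PASMC for 30 with the stricter filter, since the filter sets how many members are tested. Leaving out each library gave 29 to 33 higher and 11 to 15 lower for total SMC over BSMC, 53 to 57 higher for total SMC over PASMC and 32 to 36 higher for BSMC over PASMC. The counts lower than PASMC were 0 throughout these. On reads before scaling, total SMC was higher than BSMC for 32 and lower for 10. Under that setting the median of all genes shifted to 0.22 for total SMC over BSMC and to -0.27 for BSMC over PASMC.

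Of 84 combinations of a named member and a comparison, 68 kept direction and call under every alternative run. Values that changed sign were not called in the fit reported, and the cause was not tested. For total SMC over BSMC these were Jchain (from -0.049 without BSMC library 2 to 0.59 without BSMC library 1), Igkc (0.0023 on reads before scaling), Iglc2 (0.24 without BSMC library 1, 0.15 without total SMC library 3, -0.91 without total SMC library 1), Igkv1-110 (-0.33 without BSMC library 2, 0.91 without BSMC library 1), Igkv17-121 (0.022 on reads before scaling, -0.37 without BSMC library 1, 0.22 without BSMC library 2, 0.04 without total SMC library 3) and Ighj4 (0.087 with quantile normalization, 0.12 on reads before scaling, 0.30 without BSMC library 3, 0.38 without total SMC library 3). For BSMC over PASMC it was Ighg2c (-0.33 without BSMC library 1, 1.25 without BSMC library 2). Igkv12-44 of BSMC over PASMC lost its call with quantile normalization (adjusted p = 0.12), a pseudocount of 5 (adjusted p = 0.206), the replicate block (adjusted p = 0.0551) and without BSMC library 3 or any 1 of the PASMC or total SMC libraries.

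Same-numbered libraries did not deviate together, with correlations of -0.12 to 0.14 over 9 pairs, against -0.19 to 0.14 for differently numbered ones. These values gave no sign of pairing by number, but with 3 libraries per group they cannot exclude a shared batch. With the replicate block, total SMC was higher than BSMC for 33 and lower for 14, higher than PASMC for 56, and BSMC was higher than PASMC for 32.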
